A study of Homo sapiens with 4 samples.

Results

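MDA-MB-231 is a human breast cancer cell line of the triple-negative kind, which lacks the estrogen and progesterone receptors and an excess of ERBB2, has a spindle-like mesenchymal shape and carries mutations in RAS and RAF genes. Its response to mebendazole (MBZ), a benzimidazole used against parasitic worms, was read from the RNA-seq libraries of this line, which are 2 of the 4 samples of the series. Cultures received MBZ at 1 μM, or the vehicle DMSO, and were harvested at 72 h. SUM159, the other triple-negative line of the study, was treated with the same dose for the same time and serves here only for comparison. There was 1 library for each condition, so no spread between cultures can be given, no p-value is printed, and each interval covers counting error only. Of 58735 genes in the table, 15142 averaged 10 counts or more across both MDA-MB-231 libraries and were compared. The limit fell among many genes, since 126 had a mean of exactly 10 and 115 a mean of 9.5.

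Benzimidazoles bind β-tubulin and keep microtubules from growing. Microtubules build the mitotic spindle and carry vesicles and organelles, so drugs of this class hold dividing cells in mitosis and disturb secretion and cell shape. Free tubulin dimers are also known to shorten the life of tubulin mRNAs through a feedback on the ribosome, and microtubule loss is known to activate stress kinases and, after failed divisions, innate immune sensing.

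The libraries held 24897586 counts with DMSO and 17143139 with MBZ, and the SUM159 libraries 18708179 and 18904501. In MDA-MB-231 cells, 3 counts, used as a floor for genes with none, came to 0.132 CPM (counts scaled to the TMM library size) with DMSO and 0.160 CPM with MBZ. Markers of a mesenchymal line were abundant in both libraries, with 47253 and 20703 counts of VIM (vimentin), 41045 and 19765 of MSN (moesin) and 23386 and 13521 of AXL (a receptor kinase). ESR1, the estrogen receptor gene, had 1 count with DMSO and 0 with MBZ, PGR had 0 in both, and ERBB2 had 1996 and 1353. Of 6 luminal or epithelial markers, EPCAM had 144 and 190 counts, GATA3 171 and 179, CDH1 (E-cadherin) 11 and 12, ESRP1 4 and 15, FOXA1 0 and 5 and KRT5 0 and 2. ESRP1, FOXA1 and KRT5 fell under the count limit and were not compared, and none of the other 3 was called. Of the leukocyte, endothelial and fibroblast markers, CD3E, CDH5, PDGFRA and DCN had 0 counts in both libraries, while PECAM1 had 365 and 328 and CD14 53 and 40. PTPRC (8 and 23 counts) and VWF (10 and 19) were called higher by the rule below at these low counts, and what part other cells had in any result was not tested.

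A fold change is the ratio of MBZ to DMSO after TMM scaling within the pair, on the log2 scale, and a gene is called higher or lower where it changed at least 2-fold and its 95% counting interval excluded 0. By this rule 1306 genes (8.63%) were higher and 733 (4.84%) lower after MBZ. The change was at least 4-fold for 334 and 77 of them. The higher genes were 64.1% of the calls, with scaling by total counts 85.3%, and among genes with a mean of 100 counts or more 44.9% (348 higher and 427 lower). That scaling moved the median of all genes from -0.02 to 0.25, so every fold change below is relative to a typical gene and says nothing of the total RNA in a cell. The depth allowed a median interval of ±0.09 for genes over 1000 mean counts and ±1.18 for those under 30.

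**Figure D1:**
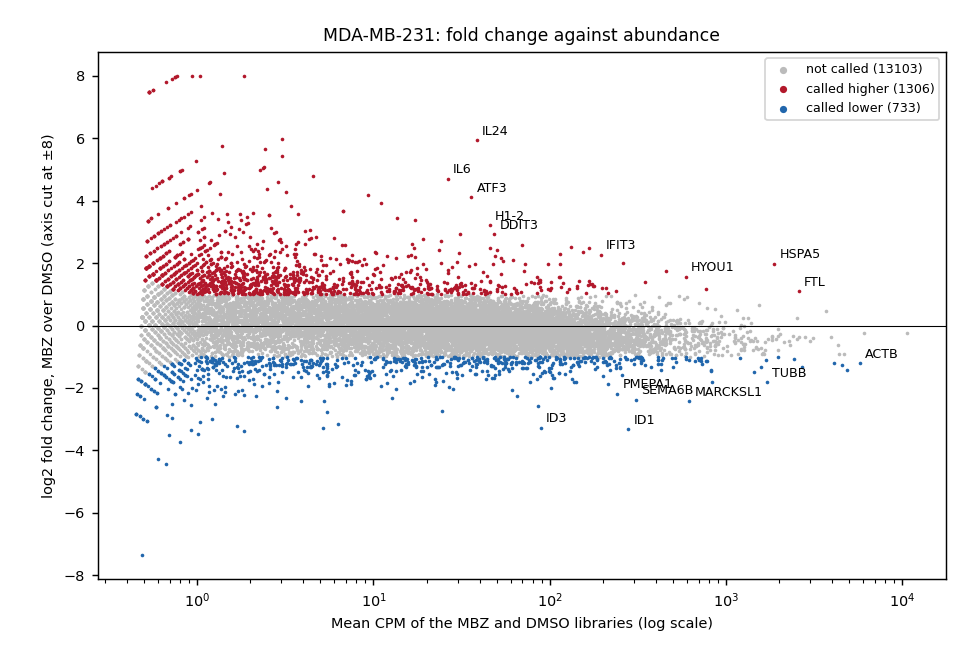
Log2 fold change of MBZ over DMSO in MDA-MB-231 cells (vertical axis, cut at ±8) against the mean CPM of the 2 libraries (horizontal log axis), with 1 point for each gene compared. The 1306 genes called higher (red) include IL24, IL6 and ATF3 and the abundant HSPA5 and FTL. The 733 called lower (blue) include ID1, ID3, MARCKSL1, TUBB and ACTB, and points at the upper edge have no DMSO count.

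The response ran together with abundance. Among genes with a mean of 10 to 30 counts, 25.4% were higher and 7.97% lower, with a median of 0.37. Among the 282 genes over 10000 counts, 1.42% were higher and 11% lower, with a median of -0.45. In SUM159 cells the same classes of gene had medians of 0.17 and -0.17.

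Promoters of 6 genes that stand for 4 groups described below are printed here, 250 bases before to 50 bases after the RefSeq start, because each holds the letters of a factor long known to act on its group. Capitals mark those letters on either strand. HSPA5 holds the endoplasmic reticulum stress element, 66 bases before the start. IFIT1 and IFIH1 hold the interferon-stimulated response element. MCM6 holds the E2F letters at 152 and 90 bases before the start, and MKI67 and CCNB2 hold the cell cycle homology region (CHR).
HSPA5, GRCh38.p14 chr9:125241294-125241593, minus strand: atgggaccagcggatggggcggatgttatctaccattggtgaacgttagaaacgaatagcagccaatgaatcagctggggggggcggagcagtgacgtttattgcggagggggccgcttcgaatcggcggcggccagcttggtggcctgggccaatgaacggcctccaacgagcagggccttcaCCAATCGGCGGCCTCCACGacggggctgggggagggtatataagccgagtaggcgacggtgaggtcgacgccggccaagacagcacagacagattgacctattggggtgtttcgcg
IFIT1, GRCh38.p14 chr10:89392373-89392672, plus strand: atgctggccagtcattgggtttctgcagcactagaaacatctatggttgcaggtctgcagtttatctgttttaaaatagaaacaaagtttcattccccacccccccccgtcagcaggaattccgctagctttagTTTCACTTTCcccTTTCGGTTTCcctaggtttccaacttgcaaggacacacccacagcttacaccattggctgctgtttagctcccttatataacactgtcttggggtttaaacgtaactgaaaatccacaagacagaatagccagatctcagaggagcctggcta
IFIH1, GRCh38.p14 chr2:162318635-162318934, minus strand: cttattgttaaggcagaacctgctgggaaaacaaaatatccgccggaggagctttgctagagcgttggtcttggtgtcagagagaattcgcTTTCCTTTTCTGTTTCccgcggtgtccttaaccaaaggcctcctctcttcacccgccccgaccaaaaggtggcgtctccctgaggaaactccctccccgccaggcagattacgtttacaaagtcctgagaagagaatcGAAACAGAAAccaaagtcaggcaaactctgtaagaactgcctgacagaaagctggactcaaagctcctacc
MCM6, GRCh38.p14 chr2:135876394-135876693, minus strand: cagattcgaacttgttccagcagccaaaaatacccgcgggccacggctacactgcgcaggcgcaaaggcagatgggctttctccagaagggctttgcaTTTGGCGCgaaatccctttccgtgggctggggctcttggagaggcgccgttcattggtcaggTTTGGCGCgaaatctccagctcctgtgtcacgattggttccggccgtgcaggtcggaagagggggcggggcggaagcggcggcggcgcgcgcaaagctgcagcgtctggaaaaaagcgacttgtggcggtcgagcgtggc
MKI67, GRCh38.p14 chr10:128126374-128126673, minus strand: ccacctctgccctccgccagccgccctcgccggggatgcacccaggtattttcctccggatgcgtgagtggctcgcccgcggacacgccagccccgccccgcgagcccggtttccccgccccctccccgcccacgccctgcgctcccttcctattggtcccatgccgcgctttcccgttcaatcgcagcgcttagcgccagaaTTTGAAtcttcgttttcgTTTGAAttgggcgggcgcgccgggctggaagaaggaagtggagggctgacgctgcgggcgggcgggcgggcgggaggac
CCNB2, GRCh38.p14 chr15:59104896-59105195, plus strand: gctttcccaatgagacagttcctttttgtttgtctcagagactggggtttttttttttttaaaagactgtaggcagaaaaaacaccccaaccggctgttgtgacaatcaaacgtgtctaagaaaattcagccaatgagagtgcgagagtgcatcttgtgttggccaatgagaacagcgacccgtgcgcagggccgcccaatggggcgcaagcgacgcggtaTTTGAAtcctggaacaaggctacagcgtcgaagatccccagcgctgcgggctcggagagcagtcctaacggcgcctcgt

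By the interval end nearest 0, IL24 came first among the higher genes. IL24, a cytokine of the IL-10 family at chr1:206897443-206904139 (7 exons), had 28 counts with DMSO and 1421 with MBZ, a log2 fold change of 5.93 (5.40 to 6.53). IL6, the main inducer of the acute phase, had 44 and 953 counts and rose by 4.71 (4.27 to 5.18). SERPINB2, an inhibitor of plasminogen activators, had 0 and 69 counts, 4.80 higher on the log2 scale when 0 is set to the floor of 3 counts, with a counting interval from 4.46 upward. IL7R, the interleukin-7 receptor, had 22 and 330 counts and rose by 4.17. S1PR1, a receptor for sphingosine-1-phosphate, had 5 and 89 counts and rose by 4.39. RSAD2, an antiviral enzyme induced by interferon, had 3 and 83 counts, a change of 5.0 (3.47 to 7.37).

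ATF3, a transcription factor induced by stress, at chr1:212565334-212620777, had 89 and 1276 counts and rose by 4.11 (3.8 to 4.44). FOSB, an AP-1 subunit, had 31 and 388 counts and rose by 3.91 (3.39 to 4.50). BHLHA15 (MIST1), a factor of secretory cells that the unfolded protein response can induce, had 7 and 114 counts, a rise of 4.27. ARC, an immediate-early gene best known from neurons, had 3 and 87 counts, a change of 5.07.

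The rest of the 20 highest genes were of mixed kinds. Matrix and extracellular proteins were among them, with FBN2 (fibrillin-2) at 2 and 112 counts, ADAMTS6, a metalloprotease, at 3 and 112, and RELN (reelin) at 5 and 104. DIO2, which activates thyroid hormone, had 2 and 89 counts, UNC13A, a vesicle priming protein, 7 and 165, and SPX, a peptide hormone, 0 and 35. FBXW10 had 0 and 29, KLHDC7B 0 and 28, and the pseudogenes NMRAL2P and AADACP1 had 3 and 86, and 1 and 51. In 11 of the 20 the DMSO library had 3 counts or fewer, so their folds are known only within wide intervals. In 7 of the 20 the exons overlap a gene on the other strand, and the strand setting of the counting is not given in the sources used here. Over all genes called higher, 78 had 3 counts or fewer with DMSO.

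SUM159 cells gave a partly different picture for these 20 genes. Of 18 compared there, 11 were called higher, 2 lower and 5 neither, beside 12.1% of all genes compared in SUM159 that were higher and 10.4% that were lower. IL24 had 29 and 2856 counts in SUM159, a change of 6.30. DIO2 had 2088 and 1979 counts there, a change of -0.39, and RSAD2 (93 and 56 counts, -1.05) and S1PR1 (227 and 82, -1.78) were lower.

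**Figure D2:**
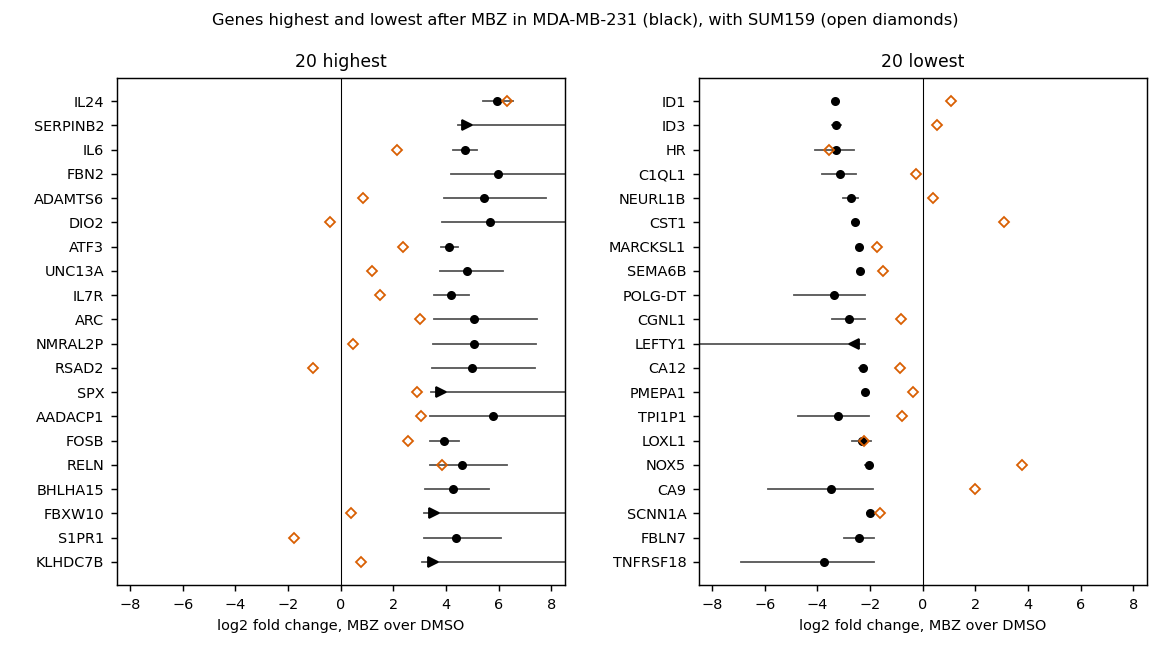
Log2 fold change (horizontal axis) of the 20 highest and 20 lowest genes by the interval end nearest 0. Black points are MDA-MB-231 values and bars their 95% counting intervals, arrowheads are bounds for genes with 0 counts in 1 library, and open diamonds are SUM159 values of genes with counts in both SUM159 libraries. IL24 is near 6 in both lines, whereas ID1, CST1, NOX5 and CA9 lie below 0 in MDA-MB-231 and above 0 in SUM159.

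At the other end, ranked by the interval end nearest 0, inhibitors of differentiation came first. ID1, at chr20:31605283-31606515, had 11537 counts with DMSO and 952 with MBZ, a change of -3.33 (-3.42 to -3.23). ID3 had 3654 and 312 counts, a change of -3.28 (-3.45 to -3.11). Both encode helix-loop-helix proteins without a DNA-binding part and are classical targets of BMP signals through SMAD1 and SMAD5. PMEPA1, a feedback inhibitor of TGF-β signals, had 8962 and 1639 counts (-2.18), and LEFTY1, a secreted TGF-β family inhibitor, had 22 and 0, a log2 change of -2.60 against the floor, with a counting interval from -2.18 downward.

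MARCKSL1, an actin-linked protein at the membrane, had 23697 and 3664 counts (-2.42; -2.47 to -2.37). SEMA6B, a transmembrane semaphorin, had 11779 and 1875 (-2.38; -2.45 to -2.31). CST1, a secreted cysteine protease inhibitor, had 3346 and 469 (-2.56), SCNN1A, the α subunit of the epithelial sodium channel, 3682 and 764 (-2.0), and NOX5, a calcium-activated NADPH oxidase, 2237 and 444 (-2.06). The carbonic anhydrases CA12 (2460 and 425, -2.26) and CA9 (42 and 3, -3.49, interval -5.87 to -1.89) were lower, as was LOXL1 (483 and 80, -2.32), which crosslinks elastin.

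HR, C1QL1, NEURL1B, CGNL1, FBLN7, TNFRSF18, the lncRNA POLG-DT and the pseudogene TPI1P1 complete the 20 lowest. NEURL1B, a ubiquitin ligase for Notch ligands, had 962 and 120 counts (-2.73), and HR, a histone demethylase, had 214 and 18 (-3.29). TPI1P1 is a copy of TPI1 whose reads cannot be told from those of its parent with certainty, and it had 69 and 6 counts. In SUM159 cells, 16 of the 20 were compared, of which 5 were lower, 4 higher and 7 neither. Of all genes compared in SUM159, 10.4% were lower and 12.1% higher. ID1 had 1157 and 3020 counts there (1.07), and CST1 8 and 86 (3.09), while MARCKSL1 (3117 and 1170, -1.73), SEMA6B (3694 and 1627, -1.50) and HR (559 and 59, -3.56) were lower in that line too.

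Genes were also ranked by reads instead of folds. The 10 genes with the largest gains in CPM took 1.14% of scaled reads with DMSO and 2.02% with MBZ. HSPA5, the main chaperone of the endoplasmic reticulum (also BiP), went from 756 to 2985 CPM and was 1.98 higher (1.96 to 2.01). FTL, the ferritin light chain, went from 1644 to 3524 CPM (1.10), SQSTM1, an autophagy receptor, from 469 to 1065 (1.18), HYOU1, another large chaperone of the reticulum, from 297 to 883 (1.57), and SLC3A2, the heavy chain of amino acid exchangers, from 210 to 703 (1.75). The other 5, the mitochondrial 16S rRNA gene MT-RNR2, CANX, PLEC, FASN and SLC38A2, had changes of 0.25 to 0.93 and were not called. None of the 10 was called in SUM159 cells, where HSPA5 had 8954 and 13563 counts (0.28).

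The 10 genes with the largest losses in CPM took 5.40% of scaled reads with DMSO and 2.48% with MBZ. ACTB, β-actin, went from 8041 to 3464 CPM (-1.22), ACTG1, γ-actin, from 5678 to 2496 (-1.19), and TUBB, the main β-tubulin, from 2644 to 755 (-1.81; -1.83 to -1.78). IGFBP4, an IGF binding protein, went from 7075 to 2642 CPM (-1.42), and HMGA1, a chromatin protein of cancer cells, from 3835 to 1532 (-1.32). ENO1 (-1.26), LDHA (-1.08), PKM (-0.91) and GAPDH (-0.90), all of glycolysis, and S100A6 (-0.62) were the others, the last 3 of them not called. With scaling by total counts ACTB, ACTG1, ENO1 and LDHA were also under the 2-fold limit. Only IGFBP4 among these 10 was called lower in SUM159 cells, with 40244 and 15016 counts (-1.74), whereas ACTB had 73145 and 93641 (0.04).

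Tubulins, the target family of the drug, were mostly lower in MDA-MB-231 cells. Of 11 α- and β-tubulin genes compared, 7 were lower (5 with scaling by total counts, against 4.84% of all genes as reported) and 0 higher, with a median of -1.20. TUBA1B had 29363 and 6912 counts (-1.81), TUBB4B 27205 and 8262 (-1.45) and TUBA1C 16310 and 5391 (-1.32). The 4 not called were TUBB6 (-0.80), TUBA3D (-0.22), TUBB2A (-0.06) and the neuronal TUBB3 (46 and 39 counts, 0.03). The tubulin mRNAs share long near-identical stretches, so reads could be split among them or left uncounted. In SUM159 cells 5 of the 11 were higher and 0 lower, with a median of 0.97, beside 12.1% and 10.4% of all genes there.

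Genes of cell division were lower in part after MBZ. Of 25 genes of mitosis and the spindle, 11 were lower (against 4.84% of all genes) and 0 higher, all 25 values were below 0, and the median was -0.91. UBE2C, the ubiquitin carrier of the anaphase-promoting complex, had 6869 and 1847 counts (-1.62), CDC25C, the phosphatase that starts mitosis, 616 and 185 (-1.46), and PLK1, a mitotic kinase, 4298 and 1407 (-1.34). MKI67, the proliferation marker, had 16281 and 5966 (-1.18). Values were closer to 0 for CCNB1 (9431 and 5084, -0.62), CDC20 (8167 and 4853, -0.48), AURKA (-0.35), NUF2 (-0.23) and CENPA (-0.21), none of which was called. With scaling by total counts 5 of the 25 were lower.

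DNA replication genes were lower in part as well. Of 26, 17 were lower (65.4%, against 4.84% of all genes) and 0 higher, all 26 values lay below 0 and the median was -1.17. With scaling by total counts 8 of the 26 were lower. MCM5, a subunit of the replicative helicase, had 4977 and 1169 counts (-1.82; -1.91 to -1.73), GINS2, of the same helicase, 800 and 188 (-1.82), MCM2 3594 and 932 (-1.67), and TK1, thymidine kinase, 8760 and 2446 (-1.57). MCM6 (3141 and 933, -1.48), E2F1 (4361 and 1495, -1.27), RRM1 (-1.09) and PCNA (4067 and 2208, -0.61, not called) lay between. CDC6 (-0.28), CCNE1 (-0.29) and RFC4 (-0.00) were nearest to 0. In SUM159 cells all 25 mitotic and 15 of the 26 replication genes were higher, beside 12.1% of all genes compared there. Their medians were 2.5 and 1.15, and MKI67 had 885 and 5801 counts in that line.

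The replication-dependent histones went the other way. Of 14 compared, 9 were higher (64.3%, against 8.63% of all genes), 0 lower and all 14 above 0, with a median of 2.13. H1-2, a linker histone, had 201 and 1546 counts (3.21; 3.0 to 3.44), H2BC5 110 and 626 (2.78), and H2AC6 117 and 538 (2.47). Their mRNAs normally end in a stem-loop without a poly(A) tail, and the libraries were made from poly-T-selected RNA, so the counts are not a measure of all histone mRNA. The whole list of 35 genes in the table summed to 54.1 CPM with DMSO and 235 with MBZ. In SUM159 the median was 1.49, with 9 of 14 higher, beside 12.1% of all genes there.

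Another list, of 21 genes that include CDKN1A, MDM2 and GDF15, had 4 higher (19.0%, against 8.63% of all genes), 0 lower and a median of 0.16. GDF15, a stress cytokine, had 390 and 1514 counts (2.23), GADD45A 953 and 1977 (1.33), PLK2 3169 and 5448 (1.05) and FAS 48 and 80 (1.01; 0.48 to 1.56). CDKN1A, which encodes p21, had 2791 and 2142 (-0.11), MDM2 1199 and 1294 (0.38) and BAX 2778 and 1831 (-0.33). Of the BCL2 family, 2 of 14 were higher (14.3%, against 8.63% of all genes). These were PMAIP1 (NOXA; 748 and 2066, 1.74) and BIK (4 and 22, 2.69; 1.17 to 4.73), both of which promote cell death. BID (1379 and 638, -0.84) and BAD (1953 and 976, -0.73), which promote it too, were not called. The family's median was -0.04, and 0.22 with scaling by total counts. BCL2L1 had 15528 and 9193 counts (-0.48) and MCL1 8131 and 7673 (0.19).

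Chemokines and cytokines were higher in part. Of 17 compared, 9 were higher (52.9%, against 8.63% of all genes) and 0 lower, with a median of 1.07. Beside IL24 and IL6, CXCL8 (interleukin-8) had 112 and 415 counts (2.16), CXCL2 34 and 196 (2.79), IL32 17 and 97 (2.78), CXCL3 22 and 93 (2.35), CCL5 11 and 42 (2.19) and IL1A 8 and 28 (2.06; 0.91 to 3.42). CXCL16 (15 and 26, 1.06; 0.10 to 2.09) was called just past the limit. The abundant CSF1 (11544 and 10519, 0.14), LIF (1271 and 1562, 0.57), IL11 (800 and 1117, 0.75) and the low CXCL1 (80 and 78, 0.24) and IL1B (17 and 16, 0.18) were not called. In SUM159 the median of these genes was 4.0, and CXCL1 had 35 and 952 counts.

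Of 15 AP-1 and immediate-early factors, 6 were higher (40%, against 8.63% of all genes) and 0 lower (median 0.59). KLF4, a stress and stem cell factor, had 885 and 4207 counts (2.52), FOS 79 and 216 (1.72), JUNB 861 and 1638 (1.20) and MAFF 1258 and 2128 (1.03), whereas FOSL1 (9618 and 6646, -0.26) and JUN (5045 and 4441, 0.09) were not called. Of 14 NF-κB feedback genes, 6 were higher (42.9%, against 8.63% of all genes) and 0 lower, with a median of 0.54. Among the higher were BIRC3, an inhibitor of cell death, at 359 and 1582 (2.41), TNFAIP3, which shuts the pathway off, at 78 and 326 (2.33), TRAF1 at 575 and 1247 (1.39) and RELB at 398 and 832 (1.34). NFKBIA, the classical early target, had 2405 and 1863 (-0.10).

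Feedback genes of the MAPK pathway, which are high in cells with mutant RAS, had 2 higher and 3 lower of 13 (median -0.62). These shares were 15.4% and 23.1%, against 8.63% and 4.84% of all genes. DUSP1 (473 and 1653, 2.08) and DUSP10 (186 and 410, 1.41), phosphatases that act on stress kinases, were higher. DUSP6 (9816 and 3970, -1.03; -1.09 to -0.98), ETV4 (4170 and 1695, -1.03) and SPRY1 (3007 and 1232, -1.01), read-outs of ERK, were lower. With scaling by total counts none of these 3 was called, with DUSP6 at -0.77 and ETV4 at -0.76. DUSP4, the most counted of the list, had 34617 and 15236 (-0.91). None of 10 EGF family ligands and receptors was called, with EGFR at 6814 and 8607 (0.61) and EREG at 785 and 1122 (0.79). Their median was 0.00, and 0.27 with scaling by total counts.

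The integrated stress and unfolded protein responses were among the groups with the highest share of calls in MDA-MB-231 cells. Of 20 genes, 13 were higher (65%, against 8.63% of all genes) and 0 lower, with a median of 1.44. DDIT3, the stress factor CHOP, had 255 and 1613 counts (2.93; 2.74 to 3.13), DNAJB9, a cochaperone of BiP, 317 and 1455 (2.47), PPP1R15A (GADD34), which restores translation, 2360 and 7777 (1.99), and SESN2 345 and 1132 (1.99). CHAC1 (162 and 444, 1.73), HERPUD1 (1328 and 3213, 1.55), TRIB3 (1060 and 2433, 1.47) and SLC7A11 (978 and 2139, 1.40) were also higher. DDIT3 overlaps MARS1 on the other strand. The mRNA of ATF4, whose control is mainly at translation, had 8991 and 7753 counts (0.06), and PHGDH (0.20), PSAT1 (0.40) and ATF5 (-0.68) were not called.

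A list of endoplasmic reticulum chaperones and degradation factors, chosen after the values of HSPA5 and HYOU1 were seen and so no independent evidence of direction, held 20 compared genes, with 7 higher (13 with scaling by total counts), 0 lower and 19 above 0 (median 0.90). The share called higher was 35%, against 8.63% of all genes. HSPA5, DNAJB9 and HERPUD1, all higher, are in the stress response list as well. MANF, a secreted stress factor, had 1576 and 3070 counts (1.23), SYVN1, the ligase that degrades misfolded proteins, 1410 and 2595 (1.15), and SDF2L1 627 and 1118 (1.11). PDIA4 (8394 and 13292, 0.94), SEL1L (0.92), HSP90B1 (16149 and 19338, 0.53) and CALR (30427 and 26635, 0.08) were not called. In SUM159 cells 1 of the 20 was higher, beside 12.1% of all genes there, and the median of the list was 0.03. Cytosolic heat shock chaperones had 1 of 13 higher (against 8.63% of all genes), HSPA6 (22 and 84, 2.20), and their median of -0.01 became 0.26 with scaling by total counts.

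Interferon-stimulated genes were called mainly higher in MDA-MB-231 and mainly lower in SUM159, where called at all. Of 24, 12 were higher and 1 lower, with a median of 1.00, and in SUM159 0 were higher and 8 lower, with a median of -0.64. Over all genes 8.63% were higher and 4.84% lower, and in SUM159 12.1% and 10.4%. With 1 library a side the difference between the lines was not tested. IFIT2 had 1152 and 5336 counts (2.48; 2.39 to 2.58), IFIT3 1515 and 6072 (2.28), OASL 877 and 3588 (2.30), IFI44 440 and 1620 (2.15) and IFIT1 1039 and 3415 (1.99). IFIT2 and IFIT3 overlap LIPA on the other strand, and of the 161 called members of all lists 59 share exon bases with a gene on the other strand. ISG20 (231 and 956, 2.32), the RNA sensors IFIH1 (170 and 468, 1.73) and RIGI (1031 and 2190, 1.36), and ISG15 (2377 and 4739, 1.27) were higher too. IRF9 (21 and 17, -0.03), which carries the interferon signal, and IFI27 (885 and 669, -0.13) were not called, and IFITM1 (512 and 198, -1.10) was lower, but not called with scaling by total counts. The same genes in SUM159 gave OASL 3659 and 1509 counts (-1.59) and IFIT3 1388 and 797 (-1.12). Of 14 genes of MHC class I presentation only HLA-F was called (21 and 59, 1.76), a share of 7.14% against 8.63% of all genes, and the median was 0.12.

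**Figure D3:**
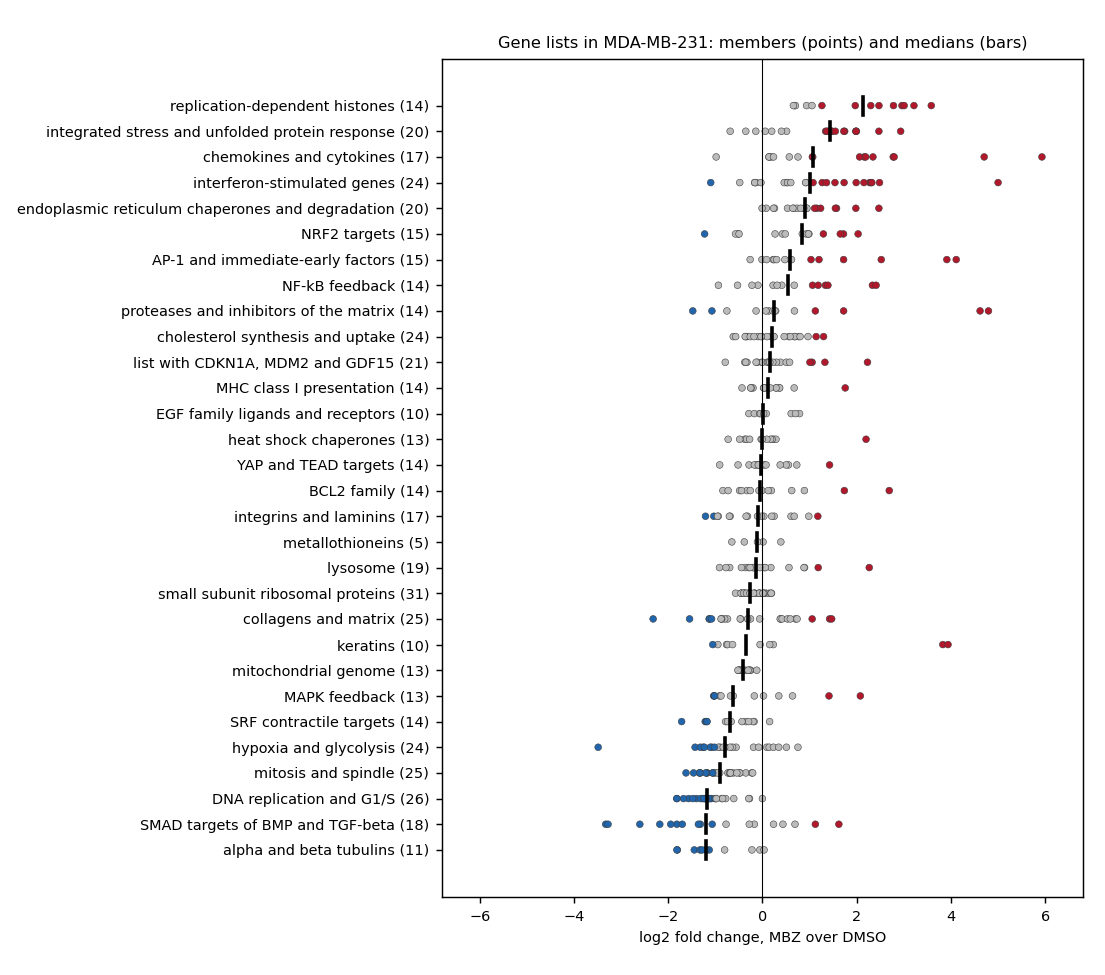
Log2 fold change of MBZ over DMSO (horizontal axis) for the members of 30 gene lists in MDA-MB-231 cells, ordered by median. Points are genes, red where called higher, blue where called lower and grey where neither, black bars are medians, the number compared stands beside each name, and genes with 0 counts in 1 library are drawn at their bound. Histones, stress response genes, cytokines and interferon-stimulated genes are at the top, and tubulins, SMAD targets, replication and mitotic genes at the bottom. With scaling by total counts every list moves up, and the lists with medians from -0.26 to -0.01 change sign.

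Genes of glycolysis and hypoxia were lower in part in MDA-MB-231 cells. Of 24, 8 were lower (33.3%, against 4.84% of all genes) and 0 higher, with a median of -0.79. With scaling by total counts 3 were lower and 1 higher. NDRG1, a hypoxia-induced gene, had 27352 and 8407 counts (-1.43), TPI1 51126 and 16983 (-1.32), PFKFB4 2042 and 719 (-1.23) and PGK1 52580 and 20206 (-1.11). VEGFA (4093 and 5711, 0.75), ADM (468 and 551, 0.51) and SLC2A1 (15448 and 13638, 0.09) were not called. In SUM159 the median was 0.60, with 7 higher and 0 lower, beside 12.1% and 10.4% of all genes there.

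The SMAD targets of BMP and TGF-β, a list chosen after ID1, ID3 and PMEPA1 were seen among the lowest genes and so no independent evidence of direction, had 10 lower and 2 higher of 18 (median -1.19, and the same with LEFTY1 at its bound), where 4.84% and 8.63% of all genes were. The 10 include ID1, ID3, PMEPA1 and LEFTY1. TGFBI, a matrix protein, had 4877 and 1147 counts (-1.82), ID4 154 and 33 (-1.95), ATOH8 778 and 198 (-1.70) and SMAD6, an inhibitor of BMP signals, 566 and 188 (-1.32). HEY1 (27 and 69, 1.62) was among the higher ones, and SMAD7 (302 and 206, -0.28), CCN2 (4564 and 3355, -0.17) and ID2 (92 and 123, 0.69) were not called. The list's median in SUM159 was 0.45.

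With scaling by total counts 1 of 14 actin and contractile targets of SRF was lower. As reported 4 were lower (28.6%, against 4.84% of all genes) and 0 higher, with a median of -0.69. Beside ACTB and ACTG1 these were MYL9, a myosin light chain (2774 and 1017, -1.18), and ACTA2 (36 and 9, -1.71; -2.97 to -0.65), while FLNA (101004 and 65485, -0.35) and VCL (12840 and 6181, -0.78) were not called. Targets of YAP and TEAD had 1 higher of 14 (against 8.63% of all genes), F3 (tissue factor; 2064 and 4585, 1.42), with CCN1 at 12063 and 16543 (0.73) and ANKRD1 at 7186 and 8416 (0.50). Their median was -0.02, and 0.24 with scaling by total counts.

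Adhesion and matrix genes had calls in both directions. ITGB4, the integrin β4 subunit of hemidesmosomes at chr17:75721328-75757818, had 10244 counts with DMSO and 4147 with MBZ, a change of -1.03 (-1.08 to -0.98) that became -0.77, under the 2-fold limit, with scaling by total counts, and 2526 and 594 counts in SUM159 (-2.40). ITGB5 had 10466 and 3749 (-1.21) and was lower too, but not with that scaling. The partner ITGA6 had 7624 and 3925 (-0.69) and LAMB3 4638 and 7591 (0.98), neither called. Over 17 integrin and laminin genes 1 was higher and 2 lower (5.88% and 11.8%, against 8.63% and 4.84% of all genes). The median was -0.10, or 0.16 with scaling by total counts.

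Of 25 collagen and matrix genes, 5 were lower and 3 higher (median -0.32), where 4.84% and 8.63% of all genes were, and with scaling by total counts 2 and 3. Beside LOXL1 the lower ones were COL6A3 (600 and 170, -1.55), FN1, fibronectin (24016 and 9078, -1.13), COL18A1 (-1.12) and COL13A1 (-1.08), and the higher ones COL1A2 (13 and 30, 1.47), LOXL4 (500 and 1112, 1.43) and COL12A1 (447 and 769, 1.06). In SUM159, 14 of 23 were lower, beside 10.4% of all genes there, with COL12A1 at 10234 and 700 counts. Of 14 proteases and inhibitors, TIMP3 (48117 and 14299, -1.48) and TIMP1 (8426 and 3318, -1.07), inhibitors of metalloproteases, were lower (TIMP1 not with scaling by total counts), and SERPINB2, MMP1 (42 and 115, 1.72) and MMP13 (1 and 23, 4.62; 2.17 to 10.2) were among the 4 higher. The shares of this list called higher and lower were 28.6% and 14.3%, against 8.63% and 4.84% of all genes. Among 10 keratins the basal KRT17 (10 and 119, 3.83) and KRT14 (2 and 27, 3.94; 2.03 to 7.14) were higher and KRT86 lower (-1.06, not called with scaling by total counts), while the abundant KRT8 (27089 and 11638, -0.95) and KRT18 (-0.74) were not called. Of the keratins 20% were higher and 10% lower, against the same 8.63% and 4.84%.

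NRF2 targets had 4 higher and 1 lower of 15 (26.7% and 6.67%, against 8.63% and 4.84% of all genes). Their median was 0.85, and 8 were higher and 0 lower with scaling by total counts. Among the 15 were AKR1C1 (70 and 237, 2.03), OSGIN1 (156 and 406, 1.65) and HMOX1, heme oxygenase (385 and 781, 1.29), all higher, and NQO1 (-0.51), not called. AKR1C1 and AKR1C2 (12 and 33, 1.72) are near-identical, so the split between them is uncertain. Cholesterol synthesis and uptake had 2 of 24 higher (8.33%, against 8.63% of all genes, and 5 with scaling by total counts), HMGCS1 (666 and 1355, 1.30) and SC5D (466 and 850, 1.14), with a median of 0.21. Of 19 lysosomal genes SQSTM1 and GPNMB (25 and 100, 2.27) were higher, 10.5% against 8.63% of all genes. With scaling by total counts 4 of the 19 were higher, where 1979 of all 15142 genes were, and the median of -0.14 became 0.12. None of 5 metallothioneins, 13 protein genes of the mitochondrial genome (median -0.41, all 13 below 0) or 31 small subunit ribosomal proteins was called, and the ribosomal median of -0.26 became 0.01 with scaling by total counts.

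**Figure D4:**
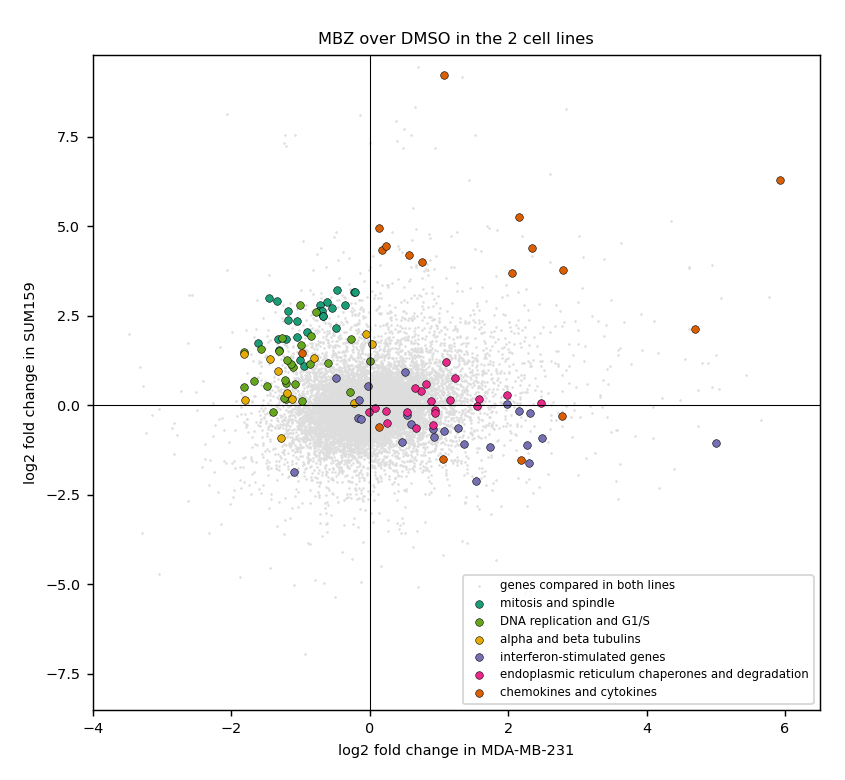
Log2 fold change of MBZ over DMSO in SUM159 (vertical axis) against MDA-MB-231 (horizontal axis) for genes compared in both lines (grey points) and for 6 lists (coloured points). Mitotic, replication and most tubulin genes lie to the left and above 0, interferon-stimulated genes mainly to the right and below 0, endoplasmic reticulum genes to the right near 0, and cytokines mainly in the upper right. A few grey points lie past the drawn range.

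Across the table, the calls of MDA-MB-231 cells were shared with SUM159 in part. Of the 1306 higher genes, 1048 were compared in SUM159, and 309 of these (29.5%) were higher and 116 (11.1%) lower there, beside 12.1% and 10.4% of all genes compared in SUM159. Of the 733 lower genes, 593 were compared, with 146 (24.6%) lower and 106 (17.9%) higher. The shared genes were 16.3% of the genes higher and 8.97% of those lower in SUM159. The median change in SUM159 was 0.40 for the genes higher and -0.24 for the genes lower in MDA-MB-231. The fold and count limits were the same in both lines, but each line was scaled within its own pair.

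Letters of known factors were more frequent in the promoters of some lists than in those of the called genes. The lists hold many known targets of these factors, so such shares follow from the choice of members and are no evidence about MBZ. RefSeq promoters (GRCh38.p14) matched by symbol for 11073 of 14238 genes compared that have a symbol, and every motif was searched on both strands. E2F letters (TTTCCCGC or TTTGGCGC) were in 54.5% of 22 replication promoters and 3.77% of all 11073. The CHR (TTTGAA) was in 65.0% of 20 mitotic promoters and 9.56% of all. The interferon-stimulated response element (GAAA, a gap of 2 bases and GAAA) was in 72.2% of 18 interferon-stimulated genes, 54.5% of 11 MHC class I promoters, 21.4% of 14 histone promoters and 2.90% of all. The endoplasmic reticulum stress element (CCAAT, a gap of 9 bases and CCACG, which contains the CCAAT letters) was in 22.2% of 18 endoplasmic reticulum genes and 0.117% of all, and CCAAT alone in 88.9% and 36.7%. CCAAT was also in 88.2% of 17 cholesterol, 92.9% of 14 histone and 75% of 20 mitotic promoters. The interferon-stimulated response element and the endoplasmic reticulum stress element were added after the values were seen.

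Over the calls as a whole the shares differed less. The AP-1 letters (TGANTCA) were in 9.33% of 825 promoters of higher genes, 4.49% of 490 of lower genes and 4.68% of all. E2F letters were in 1.70% of higher and 5.92% of lower promoters, and the CHR in 10.8% and 14.7%. The NF-κB motif was in 45.5% of 11 chemokine and cytokine promoters, 2.91% of higher, 1.22% of lower and 2.18% of all. Hypoxia letters (TACGTG) were in 27.3% of 22 glycolysis and hypoxia promoters and 3.31% of all. The CRE (TGACGTCA) was in 3.03% of higher, 2.24% of lower and 3.22% of all promoters. TEAD letters (CATTCC) were in 14.7%, 11.8% and 11% in the same order, and the amino acid response letters (TTGCATCA) in 0.848%, 0.204% and 0.497%. A match is a string of letters and not a bound site.

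Kind of gene and base composition ran with the response as well. Among 1532 lncRNAs 22.8% were higher and 5.42% lower (median 0.37), and among 12735 protein-coding genes 6.61% and 4.65% (median -0.05). The lncRNAs took 0.586% of reads with DMSO and 0.938% with MBZ, and in SUM159 0.999% and 1.17%. They are mostly of low abundance, a class in which calls were also more frequent, and the part of abundance was not tested. More genes were seen after MBZ in spite of fewer reads, with 24416 genes at 1 count or more against 22278 with DMSO, or 21417 expected if the DMSO library were thinned to the MBZ total.

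By the GC content of the canonical transcript, the median fold change went from 0.23 in genes under 40% to -0.23 in genes over 60%, and the share called lower from 1.75% to 8.36%. In SUM159 the medians of the same classes were -0.04 and -0.09 and showed no such trend. The difference of -0.45 between the extreme classes was -0.50 within protein-coding genes and -0.54 with a mean of at least 100 counts. Transcripts under 1000 bases were called higher in 14.7% of cases and those over 8000 bases in 6.95%, with medians of 0.03 and 0.04. Whether GC content moved with the treatment or with the library preparation cannot be told apart with 1 library a side.

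**Figure D5:**
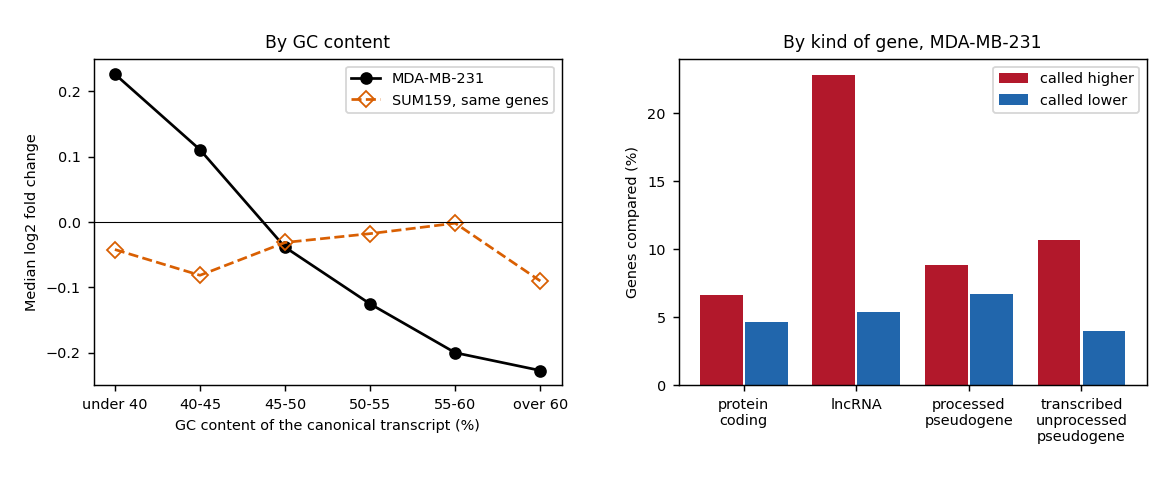
Left, median log2 fold change of MBZ over DMSO (vertical axis) in 6 classes of GC content of the canonical transcript (horizontal axis, %), for MDA-MB-231 (filled points) and the same classes in SUM159 (open diamonds). Right, percent of genes compared in MDA-MB-231 that were called higher (red) or lower (blue), by kind of gene. The MDA-MB-231 medians go from 0.23 to -0.23, and lncRNAs have the tallest bar, 22.8% called higher.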

How the data were processed

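RNA was extracted with TRIzol, mRNA was selected with poly-T beads, and paired reads were sequenced on an Illumina NovaSeq. The authors aligned the reads to GRCh38 with STAR 2.5, and deposited raw gene counts made with HTSeq 0.6.1. The annotation release and the strand setting are not given in the sources used here, so overlapping genes are uncertain. Of 58735 gene identifiers, 58207 matched an entry of the GENCODE annotation, covering at least 99.9% of MDA-MB-231 counts.

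Genes averaging 10 counts or more across the pair were compared after TMM scaling in edgeR 4.0.16 (R 4.3.3) and a prior of 0.125 counts. The share of a gene's reads from the MBZ library, with its exact Clopper-Pearson 95% interval, gave the interval of the log2 fold change. PCR copies were not marked by molecular identifiers and may repeat a molecule, so intervals and the floor of 3 counts cover counting error only. On simulated pairs, 95.4% of intervals held the true value, 200 of 200 genes changed 4-fold were recovered and 70 unchanged genes were called among 15271.

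Named genes are the 20 highest and 20 lowest by the interval end nearest 0, the 10 largest gains and 10 largest losses in CPM, up to 4 members of each list with others needed to describe it, ITGB4 and the markers. Members and lists were chosen with earlier results of these data known, and 2 lists, 2 promoter elements and the GC alternative after values were seen. Alternatives were other scalings (total counts, DESeq2 1.42.0 size factors, TMM over 4 libraries), filters, priors and fold limits. Sequences are from RefSeq (GRCh38.p14). Some list members are not reported here.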

Additional observations from a re-analysis of the deposited data

Results flagged for a closer look

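For 20 of the genes named for the size of their change, the change in MDA-MB-231 cells and the change in SUM159 cells were both called and had opposite signs. With 1 library per condition in each line, the difference was not tested. Lower in MDA-MB-231 and higher in SUM159 were ID1 (-3.33 and 1.07), CST1 (-2.56 and 3.09), NOX5 (-2.06 and 3.78) and CA9 (-3.49 and 2.0). Cell cycle genes among these 20 were GINS2 (-1.82 and 1.5), TK1 (-1.57 and 1.58), UBE2C (-1.62 and 1.75), CDC25C (-1.46 and 2.99), PLK1 (-1.34 and 2.92) and CENPF (-1.32 and 1.54). The tubulins TUBA1B (-1.81 and 1.45) and TUBB4B (-1.45 and 1.30), NDRG1 (-1.43 and 1.29) and DUSP6 (-1.03 and 1.85) had the same pattern.

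Higher in MDA-MB-231 and lower in SUM159 were the interferon-stimulated genes RSAD2 (5.0 and -1.05), OASL (2.30 and -1.59) and IFIT3 (2.28 and -1.12). S1PR1 (4.39 and -1.78), GPNMB (2.27 and -2.81) and HLA-F (1.76 and -1.38) were the others. Other genes mentioned for their lists that were called in opposite directions were CCNB2 (-1.05 and 1.91), E2F1 (-1.27 and 1.88), MKI67 (-1.18 and 2.4), PFKFB4 (-1.23 and 1.38), COL13A1 (-1.08 and 2.26), COL12A1 (1.06 and -4.19), CCL5 (2.19 and -1.52), CXCL16 (1.06 and -1.50), IFIH1 (1.73 and -1.16), RIGI (1.36 and -1.09) and PTPRC (1.78 and -2.16). RSAD2 had 3 counts in the MDA-MB-231 library with DMSO.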

How the results depend on the processing

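No list with a median beyond ±0.3 changed sign under any setting. Medians nearer 0 did so with scaling by total counts (ribosomal proteins, lysosome, metallothioneins, integrins, BCL2 family, YAP, heat shock) and with GC classes subtracted (integrins, YAP, metallothioneins, BCL2 family). The EGF median also did so with DESeq2 size factors and at 100 counts or more, and the heat shock median with TMM over 4 libraries. Scaling by total counts gave 1979 higher and 341 lower genes, with 563 genes MDA-MB-231 higher and SUM159 higher, 67 MDA-MB-231 lower and SUM159 lower, and 53 MDA-MB-231 lower and SUM159 higher. It moved the medians of tubulins to -0.93, mitosis to -0.64, replication to -0.90, the list with CDKN1A and MDM2 to 0.42, AP-1 to 0.86, MAPK feedback to -0.35, EGF to 0.27, NF-κB to 0.81, stress response to 1.70, cholesterol to 0.48, hypoxia to -0.53, interferon-stimulated genes to 1.27, MHC class I to 0.38, collagens to -0.050, integrins to 0.16, proteases to 0.51, YAP to 0.24, SRF to -0.42, NRF2 to 1.11, heat shock to 0.26, lysosome to 0.12, keratins to -0.076, mitochondrial genes to -0.14, ribosomal proteins to 0.0061, the BCL2 family to 0.22, reticulum chaperones to 1.16 and SMAD targets to -0.93. DESeq2 size factors moved mitochondrial genes to -0.46 and ribosomal proteins to -0.31. Every gene with 1 count or more gave 2080 higher genes, and protein-coding genes alone 842. A mean of at least 100 counts gave 348 higher and 427 lower (with SUM159: 62 higher in both, 27 MDA-MB-231 higher and SUM159 lower, 85 lower in both, 64 lower then higher) and medians of -0.46 for collagens, 0.14 for proteases, 0.48 for NRF2, -0.74 for keratins and -0.92 for SMAD targets. A 1.5-fold limit gave 2370 and 2139 (656, 322, 591 and 367 in the same order), and a 4-fold limit 334 and 77. Subtracting the median of each GC class, an alternative chosen after seeing the data, gave -1.0 for tubulins, -1.06 for replication, 0.76 for NF-κB, 1.58 for stress response, 0.34 for cholesterol, -0.66 for hypoxia, -0.089 for collagens, 0.085 for integrins, 0.34 for proteases, 0.13 for YAP, -0.49 for SRF, -0.11 for keratins, -0.13 for ribosomal proteins, 0.17 for the BCL2 family and -0.98 for SMAD targets. With the GC medians subtracted, 1349 genes were higher and 587 lower, against 1306 and 733 as reported. The cause of these moves was not tested. TMM over 4 libraries left all 36 such values within the limits set for no change, and a prior of 2 all 32. No paired analysis was possible because each condition has 1 library and the result comes from no test, and no library could be left out.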
